A study of Drosophila melanogaster with 2 samples.

Results

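The genes described here encode the proteins of the cytoplasmic ribosome and the translation initiation factors of Drosophila melanogaster. They are the protein-coding genes of the Ensembl release 115 annotation named RpL, RpS or RpLP with a digit, RpSA or sta, or eIF with a digit. The rule gave 137 of the 13968 protein-coding genes on the chromosome arms. Of these, 93 were ribosomal protein genes (50 of the large subunit, 39 of the small subunit and 4 of the P stalk) and 44 were initiation factor genes. The rule and the groups go by name, so they also take RpL7-like, RpL22-like, RpL24-like, RpS28-like and, in the P stalk group, RpLP0-like. Binding of a Dip2-eGFP fusion protein was mapped by chromatin immunoprecipitation and sequencing (ChIP-seq) in whole embryos aged 0 to 18 hours, in 2 biological replicates of 1 group. The embryos were of the strain Dip2-GFP, a transgenic line whose insertion targets Dlip2 per the labels. Chromatin was sheared by sonication to 200 to 800 bp and precipitated through the GFP tag. The antibody field of the labels names Dip2. The promoter that drives the fusion, the sex of the embryos and the cells that carry the protein are not given in the labels, and a whole embryo mixes all cell types. With 1 group there is no contrast between samples, so the members were set beside all protein-coding genes within the same peak list. Nothing in the labels says whether the replicates came from separate collections of embryos.

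Ribosomal protein genes are among the most strongly transcribed genes of a growing cell, and loss of a single copy of many of them gives the slow-growing Minute flies. In Drosophila their transcription commonly starts within a polypyrimidine initiator, a run of C and T called the TCT motif, in place of the usual initiator. The DNA replication-related element (DRE), bound by the factor DREF, is another promoter element of growth genes in flies. The initiation factors bring the initiator tRNA, the mRNA cap and the ribosomal subunits together: eIF2 carries the tRNA, eIF2B recharges eIF2, eIF3 scaffolds the small subunit, the eIF4 proteins act at the cap, eIF5B joins the subunits and eIF6 holds them apart.

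The sequences under the summits at RpL32, RpL34b, RpS20 and RpS4 are shown because these are the ribosomal protein genes with a peak in the main list. Each is the RefSeq sequence of dm6 from 100 bp before to 100 bp after the summit, printed 5′ to 3′ on the strand of the gene. The windows are chr3R:30046164-30046364 (RpL32, minus strand), chr3R:9401258-9401458 (RpL34b, minus strand), chr3R:20821918-20822118 (RpS20, plus strand) and chr3L:13041411-13041611 (RpS4, plus strand). The window at chr3L:3222967-3223167 (RpL28, minus strand) lies between RpL28 and eIF1, which face away from each other, and is shown as a candidate below the threshold that a pair of members shares. Capitals mark every match, on either strand, to the motifs searched: the DRE (TATCGATA), its part CGATA, the Motif 1 core GGTCACAC, the TATA word TATAAA, and the CTCF core in 4 forms, of which the first is AGATGGC, another form is AGAGGGC, another form is AGGTGGC and the last form is AGGGGGC. A full DRE match always holds CGATA.
RpL32 summit: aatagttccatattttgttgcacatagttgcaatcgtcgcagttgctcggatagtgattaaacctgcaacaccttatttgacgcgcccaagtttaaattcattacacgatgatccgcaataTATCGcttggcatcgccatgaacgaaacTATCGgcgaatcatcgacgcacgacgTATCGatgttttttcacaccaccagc
RpL34b summit: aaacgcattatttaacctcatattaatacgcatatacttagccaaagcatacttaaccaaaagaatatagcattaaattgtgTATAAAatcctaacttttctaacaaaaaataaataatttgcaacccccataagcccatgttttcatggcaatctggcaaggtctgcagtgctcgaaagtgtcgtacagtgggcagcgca
RpS20 summit: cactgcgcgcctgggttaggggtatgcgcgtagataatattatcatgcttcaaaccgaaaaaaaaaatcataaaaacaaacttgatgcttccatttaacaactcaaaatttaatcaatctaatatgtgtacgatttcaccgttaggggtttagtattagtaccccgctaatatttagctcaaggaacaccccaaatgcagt
RpS4 summit: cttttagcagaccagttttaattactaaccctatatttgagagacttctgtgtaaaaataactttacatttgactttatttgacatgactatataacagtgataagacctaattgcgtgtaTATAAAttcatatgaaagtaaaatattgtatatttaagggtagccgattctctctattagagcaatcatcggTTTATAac
RpL28 summit: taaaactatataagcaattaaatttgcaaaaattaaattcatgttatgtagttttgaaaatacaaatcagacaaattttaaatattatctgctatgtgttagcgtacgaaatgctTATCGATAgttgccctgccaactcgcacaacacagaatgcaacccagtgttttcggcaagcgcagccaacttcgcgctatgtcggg
The window of RpL32 held 3 CGATA matches, that of RpL34b 1 TATAAA, that of RpS4 2 TATAAA and that of RpL28 the whole DRE. The RpS20 window held none of these words.

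The bases around transcript starts are shown for the polypyrimidine initiator, sought on the sense strand as TCTTT or CCTTT with the C before the run of T within 10 bp of a start. Capitals mark these matches. The windows around the starts nearest to the summits are chr3R:30046146-30046176 (RpL32, minus strand), chr3R:9401211-9401241 (RpL34b, minus strand), chr3L:3222945-3222975 (RpL28, minus strand), chr3L:13041741-13041771 (RpS4, plus strand) and chr3R:20822166-20822196 (RpS20, plus strand). The second annotated start of RpS4, 45 bp downstream of the first, lies in chr3L:13041789-13041813 on the plus strand.
RpL32 start: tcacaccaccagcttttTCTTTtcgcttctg
RpL34b start: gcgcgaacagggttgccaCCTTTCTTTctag
RpL28 start: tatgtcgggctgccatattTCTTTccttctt
RpS4 second start: cgcccgcaaatctgCCTTTtCCTTT
RpS4 start nearest the summit: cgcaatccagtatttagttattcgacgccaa
RpS20 start: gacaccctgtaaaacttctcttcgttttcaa
At RpS4 the match was at the second start and not at the start nearest to the summit. RpS20 has the single start shown, and it had no match.

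Peaks came as 4 thresholded lists, cut by the authors on the irreproducible discovery rate (IDR), each beside a longer ranked list of candidates. The conservative list (629 peaks) and the optimal list (973 peaks) were made from the alignments of both replicates, and replicates 1 and 2 have lists of 550 and 742 peaks of their own. Each peak has a signal from the authors' peak caller, whose scale is not stated, and a scaled IDR score of at most 1000, where a high score stands for a low IDR. Thresholded peaks scored at least 830, or 831 in replicate 2. A peak was assigned to each gene with a transcript start no more than 500 bp from the summit, and an offset is the distance from the nearest start, negative upstream. Signals and ranks are the authors' values and are set against other peaks of the same list alone. No read counts come with the lists: the depth of the libraries is unknown, and values carry no counting error. Shares carry exact Clopper-Pearson 95% intervals, which cover the number of genes only.

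A small minority of the members had a Dip2-eGFP peak at a start. In the conservative list 7 of 137 members had one (5.11%, interval 2.08% to 10.2%), against 401 of 13968 protein-coding genes (2.87%), and the background share lay inside the interval of the members. The 7 were the large-subunit genes RpL32 and RpL34b, the small-subunit genes RpS20 and RpS4, and the factors eIF3c, eIF5B and eIF6. By family, 4 of 93 ribosomal protein genes (4.30%, interval 1.18% to 10.6%) and 3 of 44 initiation factor genes (6.82%, interval 1.43% to 18.7%) had a peak. A start with any candidate was about as common among the members as elsewhere: 81 of 137 members (59.1%) against 61.0% of all protein-coding genes. Above the median signal of the list, 1 ribosomal protein gene (RpL32) and 1 initiation factor gene (eIF6) had a peak (1.08% and 2.27%), against 1.39% of all protein-coding genes. Among genes with a candidate, 8.64% of the members and 4.71% of all protein-coding genes had a thresholded peak. The shares in all 4 lists were small and the intervals of the members wide, as the plot of shares by list shows.

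**Figure D1:**
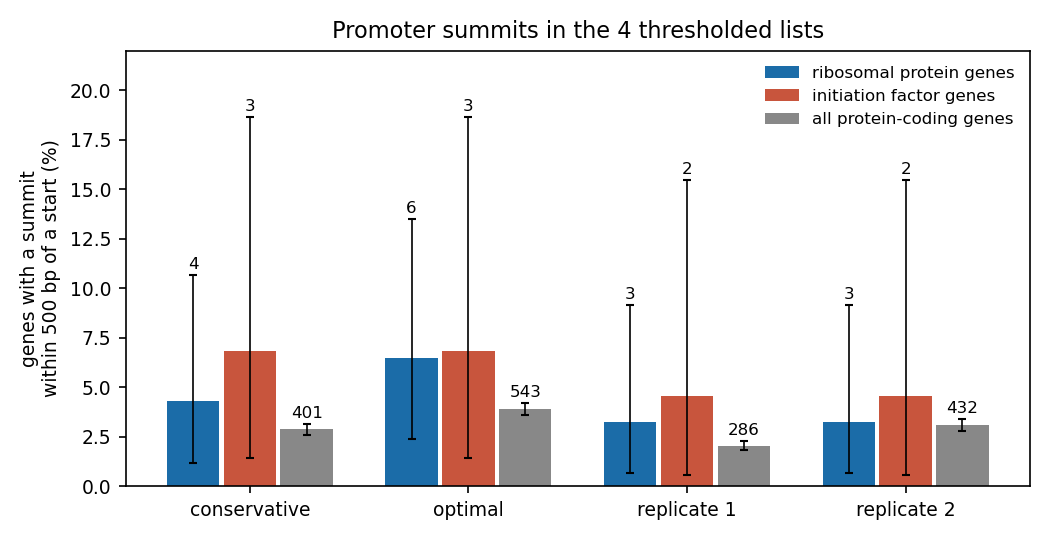
Percent of ribosomal protein genes (93), initiation factor genes (44) and all protein-coding genes (13968) that have a summit no more than 500 bp from a start in each thresholded list. Bars start at 0, error bars are exact 95% intervals on the number of genes, and the number over each bar is the count of genes; in the conservative list these are 4, 3 and 401, and the background bar lies inside both members' intervals.

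The other lists gave similar counts. The optimal list placed a peak at 9 members (6.57%) against 3.89% of all protein-coding genes, with RpL41 and RpS27 added to the 7. The list of replicate 1 had 5 (3.65%) against 2.05%, and that of replicate 2 also had 5 (3.65%) against 3.09%. Of the genes with a candidate in the ranked list, these were 9 of 90 against 5.82% in the optimal list, 7.58% against 4.03% in replicate 1 and 5.88% against 4.70% in replicate 2. Members with any candidate made up 65.7% in the optimal list, 48.2% in replicate 1 and 62.0% in replicate 2, against 66.8%, 50.8% and 65.8% of all protein-coding genes in those lists. RpL32, RpS4, eIF3c and eIF6 had a peak in all 4 lists. These 4 (2.92% of the members) were also the members in both replicate lists, against 1.68% of all protein-coding genes.

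Among the large-subunit genes, 2 of 50 had a conservative peak and 31 had a candidate. Over all protein-coding genes these shares were 2.87% and 61.0%. RpL32, also known as rp49, had a peak at chr3R:30046082-30046445 with a summit 103 bp upstream of the nearest start. Its signal was 138, rank 291 of the 629 conservative peaks. The replicates placed the RpL32 summit 125 bp (replicate 1) and 102 bp (replicate 2) upstream, with signals of 61.4 and 78.2 in their own lists and rank 323 in each. RpL32 was thus in the middle range of the list of each replicate. RpL34b, which encodes the L34 protein together with its paralog RpL34a, had a weaker peak at chr3R:9401176-9401539, 132 bp upstream, with a signal of 76.6, rank 537 and a score of 934. Replicate 1 had the RpL34b peak (signal 40.8, score 903), while the replicate 2 candidate, at a signal of 37.5, had a score of 82. The RpL34b peak therefore rests on the lists of both replicates together and of replicate 1.

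RpL41 and RpL23, also of the large subunit, passed the threshold in 1 list each. RpL41 encodes the shortest ribosomal protein. It passed in the optimal list alone, with a peak at chr2R:24903848-24904211, 95 bp upstream of its start, a signal of 61.8, rank 863 of 973 and a score of 904. The RpL41 scores were 821 in the conservative list, 459 in replicate 1 and 226 in replicate 2. RpL23 passed in replicate 2 alone, at chr2R:22853891-22854250, 312 bp upstream, with a signal of 40.2 and a score of 869. The RpL23 candidate scored 811 in the conservative list but 252 in the optimal list, and the replicate 1 candidate scored 661 and had its summit 73 bp upstream. None of the 4 genes named for the P stalk, whose acidic proteins recruit elongation factors, had a conservative thresholded peak. A conservative candidate was found at 1 of the 4, which include RpLP0-like. The shares over all protein-coding genes were 2.87% with a peak and 61.0% with a candidate. With 4 genes, neither P stalk count is read as a trait.

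Among the small-subunit genes, 2 of 39 had a conservative peak and 22 had a candidate, against 2.87% and 61.0% of all protein-coding genes. RpS4 had a peak at chr3L:13041329-13041692, with a signal of 116 and rank 350. Its summit was the most distant of the 7, 245 bp upstream in the conservative list and in replicate 2 and 284 bp upstream in replicate 1. Its signal was 50.3 in replicate 1 and 64.2 in replicate 2. RpS20 had a peak at chr3R:20821836-20822199, 163 bp upstream, with a signal of 102 and rank 408, and it passed in the lists made from both replicates and in neither replicate's own. The RpS20 candidates had a signal of 55.4 and a score of 181 in replicate 1, and a signal of 49.2 and a score of 681 in replicate 2. In replicate 1 the RpS20 signal was thus above that of RpS4, which passed with a score of 1000: signal and score order these candidates differently. RpS27 passed in the optimal list alone (chr3R:25247429-25247792, 97 bp upstream, signal 63.7, rank 831, score 866), with a score of 23 in replicate 2 and no candidate in replicate 1.

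**Figure D2:**
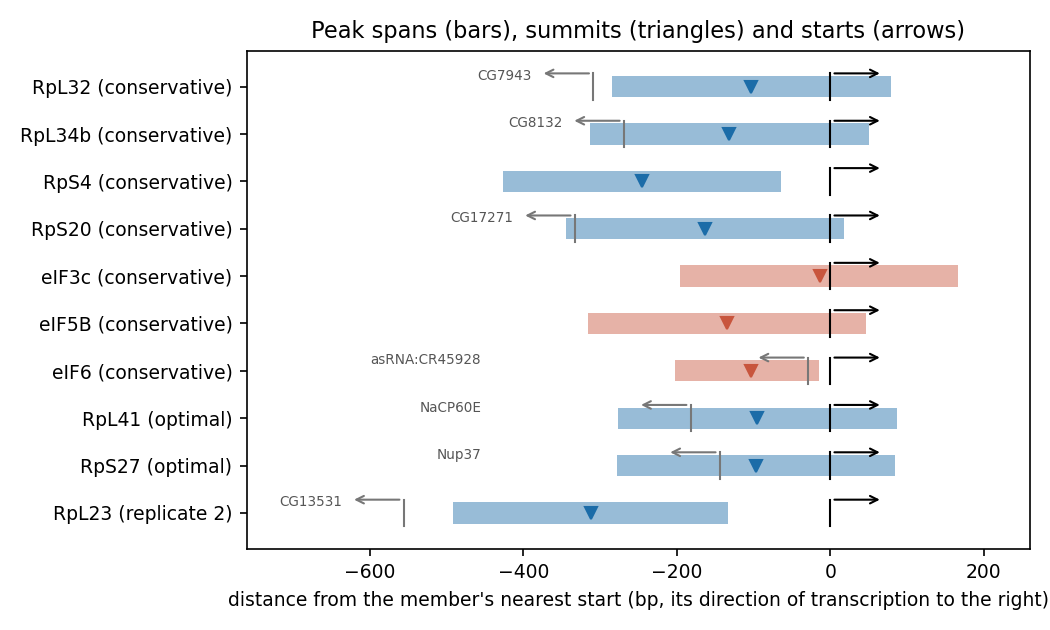
Peaks at the 10 members with a summit in any thresholded list, by distance in bp from the member's nearest start, with the list named at the left. Bars are peak spans (blue for ribosomal protein genes, red for initiation factor genes), triangles are summits, black arrows are the members' starts and gray arrows are starts of named genes on the opposite strand; the 10 summits drawn lie upstream, between 14 and 312 bp from the start.

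The initiation factors gave the strongest peak. The eIF6 gene, whose product binds the large subunit and keeps it from joining the small one, had a peak at chr2R:23850316-23850503 with a signal of 317, rank 160, and a summit 103 bp upstream. Replicates 1 and 2 ranked the eIF6 peak 158 and 162, with signals of 131 and 187. The eIF3c gene encodes a core subunit of eIF3 and was the single member of the 16 eIF3 genes with a peak, at chr2R:17665482-17665845. Its summit was the nearest to a start, 14 bp upstream, with a signal of 119 and rank 337, and replicate signals of 64.1 (replicate 1) and 56.8 (replicate 2). The eIF5B gene, for the GTPase that joins the subunits, had a peak at chr3L:3460556-3460919 with a signal of 82.7, rank 502 and a score of 913. Its summit lay 135 bp upstream of the inner start of the gene, inside an exon of eIF5B outside the coding sequence. The eIF5B replicate candidates scored 204 (replicate 1) and 520 (replicate 2), under the threshold. In the optimal list a second eIF5B peak, at chr3L:3460755-3461118, had a score of 899 but a signal of 4.85, rank 959 of 973. None of the 2 eIF1 genes, the 5 eIF2 genes, the 5 eIF2B genes or the 13 eIF4 genes had a thresholded peak in any list. Over all protein-coding genes the share with a peak was 2.05% to 3.89% across the lists. In groups this small, the lack of a peak is thus not read as a trait. Of these 4 groups 1, 3, 4 and 7 genes had a conservative candidate, against 61.0% of all protein-coding genes. The groups go by name: the 5 eIF2 genes are eIF2alpha, eIF2beta, eIF2gamma, eIF2A and eIF2D. The 3 with a candidate were eIF2gamma, eIF2A and eIF2D.

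One eIF4 gene, eIF4EHP, had a strong candidate outside the thresholded lists. It encodes the cap-binding repressor that, in Drosophila embryos, acts on caudal mRNA with Bicoid. Its candidate at chr3R:24109019-24109382, 241 bp upstream, had a signal of 186, higher than at every member but eIF6, and a score of 1000. The eIF4EHP score was also 1000 in the optimal list and in both replicates, where the signals were 65.0 (replicate 1) and 125 (replicate 2), yet no thresholded list held the peak. In the conservative ranked list 21 candidates, 10 of them on the arms, likewise scored at or above 830 without being in the thresholded list. The deposited text names 1 further input for the thresholded lists and does not say what it holds, and its part in this was not tested.

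Ranks of the 7 conservative peaks ran from 160 to 537, with a median of 350 against 333 for all summit and gene pairs at protein-coding starts, and the median signals were 116 and 120. Each of the 7 lay above 99.5% to 99.9% of the candidates of the ranked list by signal. All 7 were upstream of the gene's nearest start, at a median offset of −132 bp. For all protein-coding genes this held for 374 of 417 pairs (89.7%), at a median of −147 bp. The eIF5B summit, upstream of the inner start, was downstream of the outer start of the gene. The member medians of rank, signal and offset thus lay close to those of all promoter peaks of the list.

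Below the threshold the scores fell steeply, as the plot of scores over all members shows. The median score over members with a conservative candidate was 53, against 52 for all protein-coding genes, and the quartiles were 18 and 117 against 18 and 96. In the other lists the member median was the lower one: 62.5 against 71 in the optimal list, 13.5 against 15 in replicate 1 and 13 against 15 in replicate 2. Scores over 500 were found at 14 of 81 members (17.3%) against 6.88% of protein-coding genes with a candidate. The same count was 11 of 90 (12.2%) against 8.37% in the optimal list, 7 of 66 (10.6%) against 5.04% in replicate 1 and 8 of 85 (9.41%) against 6.23% in replicate 2. RpL28 and eIF1, both among the 14, share 1 candidate, so these counts are not of independent sites. Median signals were 23.2 and 22.6.

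**Figure D3:**
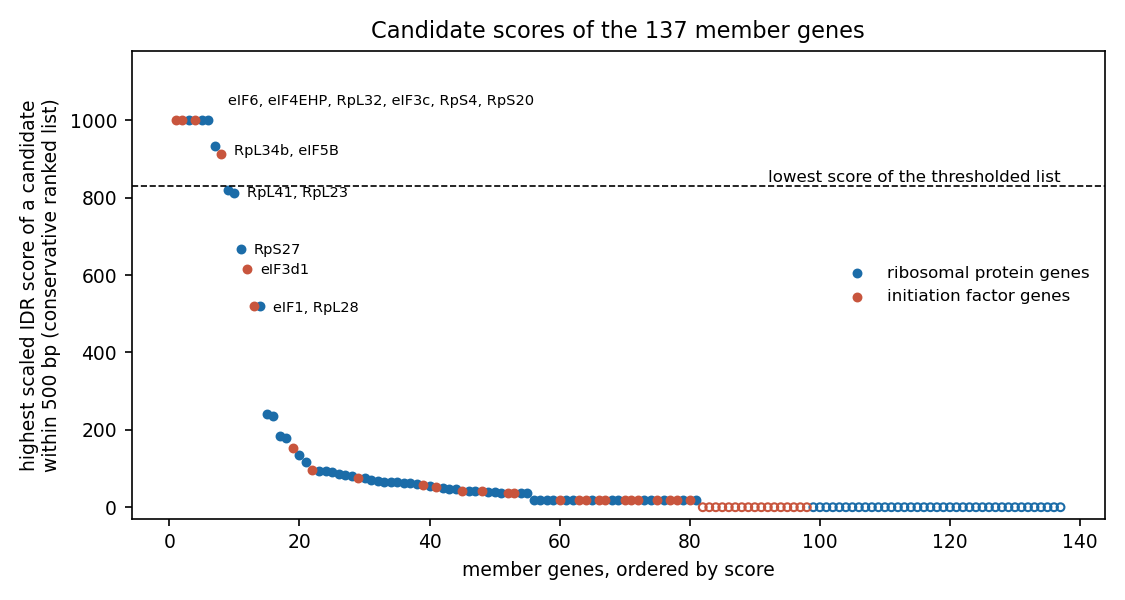
Highest scaled IDR score of a candidate within 500 bp of a start in the conservative ranked list, for all 137 members in order of score. Filled points have a candidate (81), open points at 0 have none (56), the dashed line is the lowest thresholded score of 830, and eIF4EHP is the point above that line that is in no thresholded list.

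The 9 members that followed eIF4EHP by conservative score outside the thresholded lists were described next. The eIF3d1 gene, for the eIF3 subunit that in human cells can bind the cap, scored 616 at a signal of 54.3, with a summit 42 bp upstream. Its score was 644 in the optimal list, 79 in replicate 1 and 37 in replicate 2. RpL28 and eIF1, the factor that guards the choice of start codon, shared a candidate that scored 519 at a signal of 50.6, with the summit 107 bp from RpL28 and 274 bp from eIF1, upstream of both. The score of that shared candidate was 53 in the optimal list, 12 in replicate 1 and 13 in replicate 2, so its place rests on the conservative list. RpL30 (241) and RpL23A (179) followed, with summits 42 and 131 bp upstream, and RpL13A (136) had its summit 34 bp upstream. RpL31 (235), RpL22 (185) and eIF2Balpha (154) had summits 449, 376 and 494 bp downstream, each in a coding exon of the gene itself. RpL30 and eIF2Balpha had no candidate in either replicate's own list, and RpL31 had none in replicate 1 and scored 10 in replicate 2. The highest scores in replicates 1 and 2 were 295 and 70 at RpL23A, 37 and 240 at RpL22, and 6 and 18 at RpL13A. The eIF2Balpha candidate had a signal of 2.18, above 0.493% of the candidates in the list, so here a score of 154 went with a signal near the bottom.

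Some members had nothing to score. In no ranked list did 30 of the 137 have a candidate at a start, while 107 had one in at least 1 list and 50 had one in all 4. The 19 ribosomal protein genes without any were RpL6, RpL10, RpL12, RpL13, RpL19, RpL24-like, RpL29, RpL38, RpL39, RpL40, RpLP2, RpS2, RpS3, RpS3A, RpS7, RpS15, RpS16, RpS21 and RpS30. The 11 initiation factor genes were eIF1A, eIF2beta, eIF2Bgamma, eIF3e, eIF3f2, eIF3j, eIF3k, eIF4B, eIF4E3, eIF4G1 and eIF5. No count over all protein-coding genes was set beside the 30, 107 and 50, so they are not read as a trait of the members. In each ranked list alone the share with a candidate was slightly lower for members than for all protein-coding genes. In the conservative list it was 59.1% against 61.0%. Without read counts, a missing candidate cannot be told apart from a site too weakly sequenced to be listed.

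Between replicates, the members with a candidate in both (51) kept a rough order. Spearman's rho across these genes was 0.589 for signal and 0.685 for score, against 0.362 and 0.309 over the 5567 protein-coding genes with a candidate in both. These are descriptions across genes of 2 libraries, and genes are not independent replicates. The summits of the 2 replicates lay a median of 79 bp apart at the members and 143 bp apart over all protein-coding genes. In the plot of both replicates the labeled members lie toward the upper right of the members. They were labeled for passing a threshold or for a high score, so this place follows from the choice. Most members lie among the other genes. Thresholded peaks at protein-coding starts reached signals of 1189 in replicate 1 and 1832 in replicate 2, above every member.

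**Figure D4:**
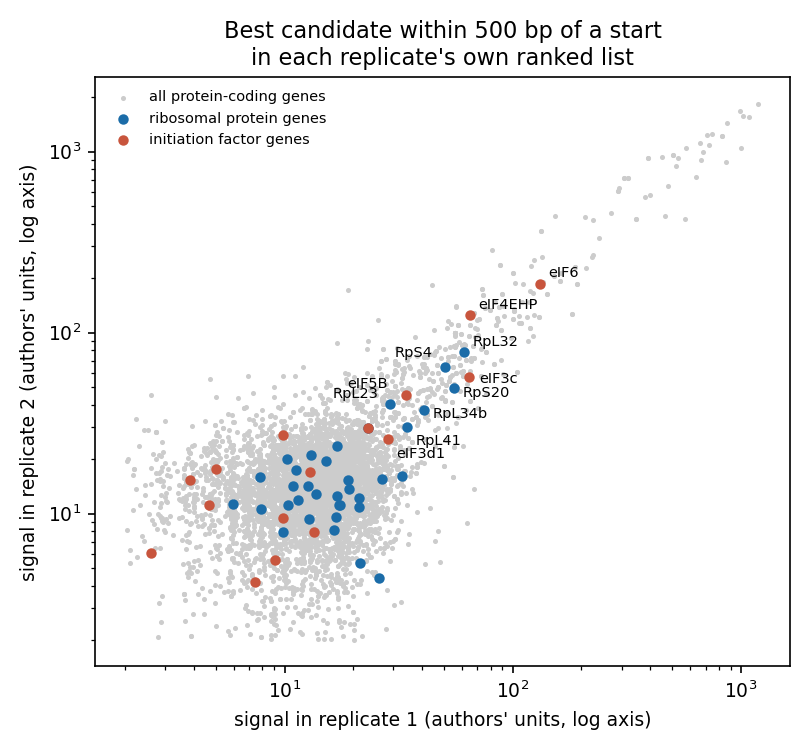
Signal of the best-scoring candidate within 500 bp of a start in replicate 1 (x) and replicate 2 (y), in the authors' units on log axes, for genes with a candidate in both. Gray points are all protein-coding genes (5567), blue points ribosomal protein genes and red points initiation factor genes (51 members in all); eIF6 is the member farthest up, at 131 and 187.

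The peaks at several members also lie at the start of a neighbor on the other strand, and a summit between both starts cannot be given to one of the genes alone. The summits at RpL32, RpL34b and RpS20 were 206, 137 and 170 bp upstream of CG7943, CG8132 and CG17271. The eIF6 summit lay 74 bp inside the antisense transcript asRNA:CR45928, and with each summit given to the nearest start alone eIF6 had no peak. At RpL41 the summit was also 87 bp upstream of a start of NaCP60E, which encodes a sodium channel, and at RpS27 it was 47 bp upstream of Nup37, which encodes a nucleoporin. The RpL23 summit was 244 bp upstream of CG13531, and the eIF4EHP candidate was 135 bp upstream of CG18428. No other start lay within 500 bp of the RpS4 or eIF3c summits or of the main eIF5B summit. An opposite start within 1000 bp upstream was found at 81 of 137 members (59.1%), against 39.6% of all protein-coding genes, and at 6 of the 7 members with a peak against 68.6% of the 401 genes with one.

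The 500 bp limit left out 1 strong peak. At eIF2Bbeta, for a subunit of the exchange factor of eIF2, a summit lay 699 bp upstream, at chrX:2703738-2704019, with a signal of 569 and rank 120, higher than at any member inside the limit. That summit was 20 bp upstream of the start of Ugalt, which encodes a transporter of UDP-galactose. The most distant members inside the limit were RpS4 in the conservative list and RpL23 in replicate 2. Over all members the nearest conservative summit was a median of 46.8 kb away, against 61.5 kb for all protein-coding genes.

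Promoter elements were counted at the starts of all members. The polypyrimidine initiator was matched at a start of 75 of 93 ribosomal protein genes (80.6%) and 9 of 44 initiation factor genes (20.5%), against 887 of 13968 protein-coding genes (6.35%). Among the 4 ribosomal protein genes with a conservative peak it was matched at RpL32, RpL34b and RpS4 and not at RpS20, and of the factors at eIF3c. At RpS4 and eIF3c the match was not at the start nearest to the summit but at another start, 45 and 81 bp from it. Over all 401 protein-coding genes with a peak it was matched at 33 (8.23%). In the 201 bp ending at the outermost start, the DRE was matched at 33 of 137 members (24.1%) against 7.37% of all promoters, CGATA at 63.5% against 38.4%, and the Motif 1 core at 10.9% against 3.74%. TATAAA was matched at 36.5% against 37.0%, and the CTCF core at 4.38% against 6.34%.

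**Figure D5:**
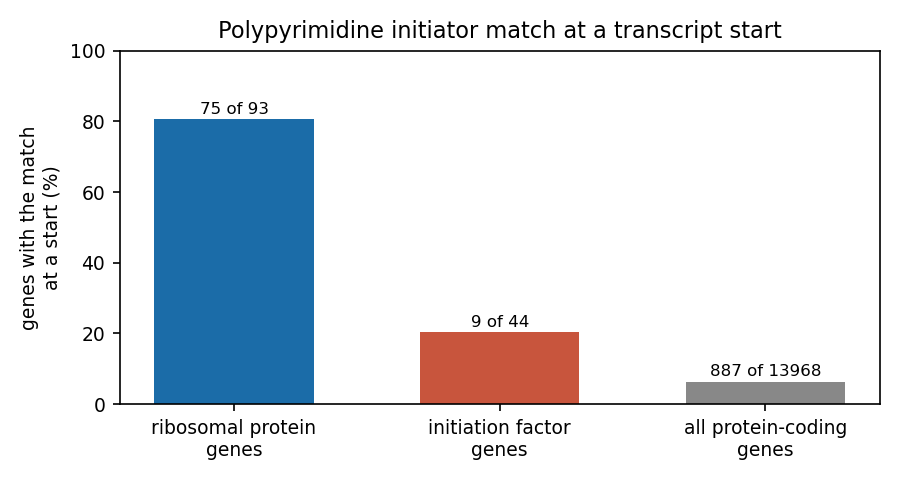
Percent of genes with a match to the polypyrimidine initiator (TCTTT or CCTTT) within 10 bp of an annotated start. Bars start at 0 and carry their counts: 75 of 93 ribosomal protein genes, 9 of 44 initiation factor genes and 887 of 13968 protein-coding genes.

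The same words were counted within 100 bp of the 7 member summits. The DRE was matched at 1 summit, that of eIF6, against 4.76% of the 294 promoter peaks of the list. CGATA was matched at 4 (RpL32, eIF3c, eIF5B and eIF6) against 34.4%, and TATAAA at 3 (RpL34b, RpS4 and eIF6) against 41.5%. The CTCF core was matched at 0 of the 7, against 19.4% of all promoter peaks, and the Motif 1 core at 0 against 1.36%. Within 250 bp CGATA was matched at 6 summits against 60.2%, TATAAA at 3 against 58.8%, the DRE at 2 against 11.2%, and the CTCF core at 1 against 32.0%. Within 50 bp CGATA was matched at 2 against 47 of the 294 peaks, TATAAA at 3 against 28.9% and the DRE at 0 against 2.04%. Outside the conservative list, the RpL41 window held both the CTCF core and the DRE, and the eIF3d1 window held the CTCF core. The GC content of the windows had a median of 37.3% at the member peaks and 34.8% at all promoter peaks. A match states that the letters are present, and a missing match only that they are not in the window.

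Other genes of protein synthesis were set beside the members in the conservative list. Of the 73 mitochondrial ribosomal protein genes, 7 (9.59%) had a peak, against 2.87% of all protein-coding genes, and the difference was not tested. These were mRpL41 (signal 440), mRpS23 (358), mRpS10 (326), mRpL23 (232), mRpL24 (98.0), mRpS2 (93.7) and mRpL20 (74.2). The first 3 of these were above eIF6, the strongest member. Of the 18 aminoacyl-tRNA synthetase genes not named as mitochondrial, SerRS (5.56%) had a peak, 40 bp downstream of a start at a signal of 110. None of the 9 elongation and termination factor genes had one. Taken as 3 counts of the total, a count of 0 allows up to 33.3%. None of the 17 genes of TOR and translational control and none of the 17 of ribosome assembly and RNA polymerase I had one, which by the same rule allows up to 17.6% in each. In the optimal list REPTOR, a transcription factor controlled by TOR, had a peak at a signal of 87.0 and Ns2, a nucleostemin-type GTPase, at 65.5, and GluProRS and ThrRS were added to SerRS.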

How the data were processed

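ChIP-seq peaks of 1 group of 2 biological replicates were used as deposited. Per the text deposited with the samples, each list came from alignments to dm6 of 1 or both replicates and 1 input shared with the fold change tracks. The signal and the scaled IDR score of each peak are the authors' values, and −log10 IDR values stand in the deposited ranked lists. Neither the aligner, the peak caller nor the scale of the signal was given in the sources used here. Signal tracks, alignments and a control were not used here.

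Summits were assigned to every gene with a start within 500 bp, with Python 3.11.15, pandas 2.3.3, numpy 2.4.6, scipy 1.17.1 and matplotlib 3.10.9. The Ensembl release 115 models and the RefSeq sequence are of the same assembly, and no peak or start lay past an arm end. For each gene the candidate of highest score was taken. The assignment was tested on simulated data. The members, gene lists and motifs were chosen with earlier results of these data known. Named genes are members with a peak in any thresholded list, the 10 next by conservative score and members with a peak 501 to 1000 bp away. Genes of the other lists with a conservative peak are named too, as are some, but not all, of the genes that share a peak or candidate. Genes named from other lists or distances were chosen after their values were seen. Alternatives were the other lists, distances of 250 and 1000 bp, nearest start only, peaks above the median signal, peak intervals, motif windows of 50 and 250 bp and divergent distances of 500 and 2000 bp.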

Additional observations from a re-analysis of the deposited data

How the results depend on the processing

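The median offset of member summits stayed upstream under the alternatives run, at −133.5 to −102 bp. Each replicate's own list gave 3 ribosomal protein genes and 2 initiation factor genes, the optimal list 6 and 3, and 250 bp, 1000 bp, nearest start and peak intervals gave 4 ribosomal protein genes each. Initiation factor genes numbered 3 at 250 bp, 4 at 1000 bp, where eIF2Bbeta was added, and 2 with the nearest start alone, where eIF6 was lost. In the part of the list above its median signal, 1 ribosomal protein gene (RpL32) and 1 initiation factor gene (eIF6) remained. The share of ribosomal protein genes was then 1.08%, below the 1.39% of all protein-coding genes. In the other settings it was above the share of all protein-coding genes in the same setting. Without replicate 1 the values were nearly equal, 3.23% against 3.09%. These shares rest on few genes and the differences were not tested. The percent of all protein-coding genes with a peak was 2.05 to 3.09 with 1 replicate left out and 3.89 in the optimal list. It was 2.33 at 250 bp, 3.59 at 1000 bp, 3.15 with peak intervals, 2.02 with the nearest start alone and 1.39 above the median signal. With 1 replicate left out, the percent of members with a candidate was 48.2 to 62.0, against 50.8 to 65.8 of all protein-coding genes. It was 38.7 at 250 bp and 73.0 at 1000 bp. The share of all protein-coding genes at those distances is not given here, so these moves are not read as a result about the members. The median score was 13 to 13.5 with 1 replicate left out, against 15 over all protein-coding genes in each replicate. At the member summits, TATAAA was matched at 3 of 7 within 50, 100 and 250 bp. The shares of all promoter peaks were 28.9%, 41.5% and 58.8%, and with 7 peaks no direction is read from this. The DRE was matched at 0 of the 7 within 50 bp, against 2.04%. The percent of members with a divergent start was 42.3 within 500 bp, against 29.6 of all protein-coding genes. Within 2000 bp it was 65.7 against 48.7. No paired analysis was possible because there is 1 group and no test between groups. The counts rest on 7 genes, and the depth of the libraries is unknown.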
